A study of Homo sapiens and Mus musculus with 12 samples.

Results

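This report follows 10 genes: the transcriptional coactivators YAP1 and WWTR1 (whose protein is known as TAZ), the DNA-binding factors TEAD1, TEAD2, TEAD3 and TEAD4, and the secreted matricellular proteins CCN1, CCN2, CCN3 and CCN5. They were matched by symbol, in capitals, in tables of 16782 genes for the human melanoma line A375 and 12711 genes for the mouse melanoma line Yumm1.7, and all 10 were listed in both under their CCN names. Symbols are written in capitals for both species. The study spun lysates of parental and drug-tolerant persister cells of each line through a sucrose gradient, where an mRNA travels further the more ribosomes it carries. It sequenced RNA from before the gradient (input), from the 80S peak with the lighter fractions just ahead of it (monosome) and from the bottom fractions (polysome).

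The libraries are named for the line, a letter P or S, and the fraction. The labels do not say which letter is the parental and which the persister state, nor which drug was used, and the letters are kept here. Each of the 12 combinations is 1 library, so no value below has a replicate error, no test between states was possible, and no p-value is given. Levels are TPM (a read density per transcript length scaled so that a library sums to 1000000). TPM keeps no read depth, so counting error is unknown. The listed genes summed to between 66.6% and 94.4% of 1000000 in the 12 libraries, with between 276 and 1581 genes listed at 0.

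A375 expressed some melanocyte lineage genes. Of 8 lineage markers 6 were in its table, and MLANA and TYR were not. SOX10 was at 156 TPM in P input and 217 in S input. S100B was at 332 and 314, MITF at 66.6 and 43.0 and DCT at 25.2 and 249. PMEL was at 6.49 and 39.5, and TYRP1 at 0.221 and 1.01. In Yumm1.7 only 4 of 8 lineage markers were in the table, their sum was 5.09 TPM in P input and 0.571 in S input. MITF had the highest level among them in both. The lineage markers therefore did not identify the Yumm1.7 libraries as melanocytic. In both tables, 1 of 5 endothelial and 1 of 6 leukocyte markers were listed.

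YAP1 and TAZ carry no DNA-binding domain of their own. They enter the nucleus when the Hippo kinases MST1/2 and LATS1/2 are inactive, and there bind TEAD proteins at enhancers and promoters. CCN1 and CCN2 are textbook targets of this complex, and YAP/TAZ activity in melanoma has been linked to invasive, dedifferentiated cells and to survival under inhibitors of mutant BRAF signalling. The CCN proteins are cysteine-rich, bind integrins and heparan sulfate at the cell surface, and are built from up to 4 modules, of which CCN5 lacks the last.

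Human promoter sequence shows how differently TEAD motifs are placed among the members. RefSeq windows of the 250 bases before a gene's start (GRCh38.p14) were found for 5 of the 10 genes: YAP1, WWTR1, TEAD2, TEAD3 and CCN2. The TEAD motif GGAATG was searched on both strands. The windows of CCN2, of YAP1, and of TEAD2 and TEAD3, which were both counted as higher in S input, are shown 5′ to 3′ on the gene's strand, with motif matches in capitals. The CCN2 window is chr6:131951373-131951622 (minus strand), YAP1 chr11:102110197-102110446 (plus), TEAD2 chr19:49362417-49362666 (minus, the first of its 2 starts) and TEAD3 chr6:35497080-35497329 (minus).
CCN2: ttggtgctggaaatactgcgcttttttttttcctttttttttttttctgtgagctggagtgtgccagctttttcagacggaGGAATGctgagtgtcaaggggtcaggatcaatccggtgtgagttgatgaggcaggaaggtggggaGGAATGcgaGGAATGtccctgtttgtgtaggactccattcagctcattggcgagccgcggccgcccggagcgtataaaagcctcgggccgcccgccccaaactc
YAP1: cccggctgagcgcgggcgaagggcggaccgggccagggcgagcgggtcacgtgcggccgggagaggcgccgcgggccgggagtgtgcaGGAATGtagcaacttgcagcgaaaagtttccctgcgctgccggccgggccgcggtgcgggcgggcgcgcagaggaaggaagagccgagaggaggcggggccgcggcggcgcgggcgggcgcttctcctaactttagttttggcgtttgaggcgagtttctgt
TEAD2: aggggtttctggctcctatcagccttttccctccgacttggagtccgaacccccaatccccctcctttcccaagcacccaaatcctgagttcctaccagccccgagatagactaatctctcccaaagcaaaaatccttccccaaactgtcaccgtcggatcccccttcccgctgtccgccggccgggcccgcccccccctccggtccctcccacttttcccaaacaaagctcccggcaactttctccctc
TEAD3: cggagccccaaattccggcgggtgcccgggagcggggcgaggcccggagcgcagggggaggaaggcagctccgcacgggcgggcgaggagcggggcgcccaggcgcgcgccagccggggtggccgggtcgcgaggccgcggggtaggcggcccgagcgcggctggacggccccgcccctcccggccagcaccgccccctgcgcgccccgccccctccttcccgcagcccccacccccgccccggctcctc

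The CCN2 window held 3 matches, beginning 169, 104 and 95 bases before the start, all on the gene's strand. The YAP1 window held 1, beginning 162 bases before the start. Both TEAD2 windows, the TEAD3 window and both WWTR1 windows held none. Of 35116 promoter windows of this length, 11.9% held at least 1 match and 29, or 0.0826%, at least 3. The AP-1 motif TGANTCA (in 6.57% of windows) and the CArG box bound by SRF (in 1.16%) had no match in the 7 windows of the 5 genes.

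**Figure D1:**
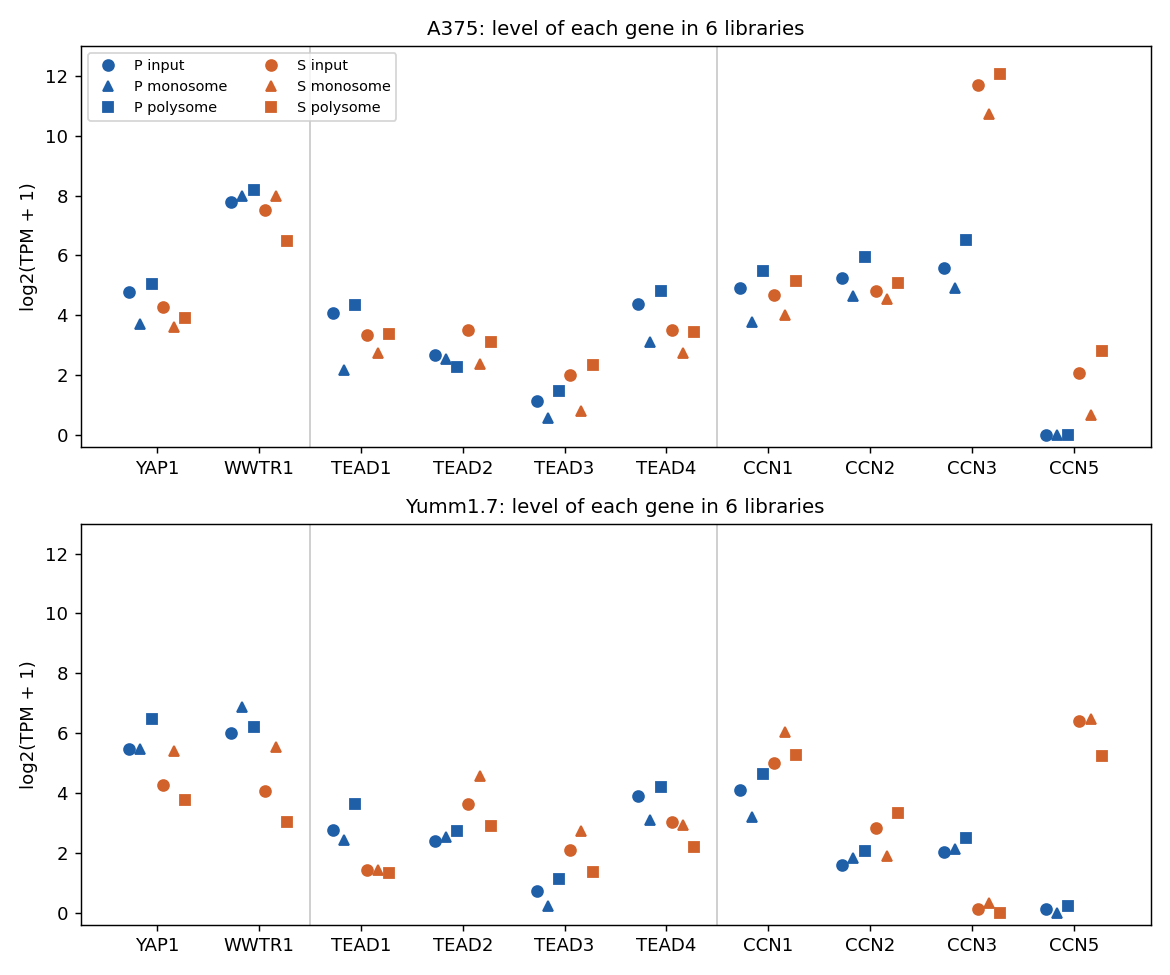
Level of each of the 10 genes as log2(TPM + 1), with A375 above and Yumm1.7 below; colour gives the state, P or S, shape gives the fraction, and each point is 1 library. CCN3 of A375 and CCN5 of Yumm1.7 are the points that lie far apart by state, at 46.3 against 3334 TPM and 0.0825 against 83.2 TPM in input.

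Levels were compared as log2(TPM + 1), which understates differences of low genes, for genes averaging 1 TPM or more across their line's 6 libraries (12638 in A375 and 10492 in Yumm1.7). All 10 members reached this level in both lines, but some only through the state where they were high: CCN5 in both lines and TEAD3 in Yumm1.7 averaged under 1 TPM in P, and CCN3 in Yumm1.7 in S. Since the median gene itself was lower in S input, by 0.20 on the log2 scale in A375 and by 0.94 in Yumm1.7, log2 differences are given relative to the median gene, and genes that differ 2-fold or more (1 on the log2 scale) are counted. TPM values are as deposited. The share of all genes whose S and P libraries do not overlap was not counted, so such statements below describe single genes only. As deposited, the S minus P difference of the Yumm1.7 median gene was -0.94 in input, -0.21 in monosomes and -1.53 in polysomes. In RNA from whole cultures, fewer cells that express a gene and less of its RNA per cell cannot be told apart.

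In A375 input RNA, 4 members were at least 2-fold higher in S than in P (TEAD2, TEAD3, CCN3 and CCN5) and none was lower. Of all genes tested, 15.6% were higher and 16.2% lower. In Yumm1.7 input RNA, 5 members were higher (TEAD2, TEAD3, CCN1, CCN2 and CCN5) and 1 was lower (WWTR1), against 23.1% and 22.3% of all genes. The median of the 10 members was -0.06 in A375 and 0.94 in Yumm1.7, where the median of all genes tested is 0 by construction. TEAD2, TEAD3 and CCN5 were counted as higher in both lines, of which CCN5 in both and TEAD3 in Yumm1.7 had entered the comparison through their S levels. The share of all genes higher in both lines was not counted. As deposited, TEAD2 (0.84) and TEAD3 (0.86) were within 2-fold in A375. Without centring on the median gene, the counts were 2 higher and 0 lower in A375 (all genes 11.9% and 20.9%) and 4 higher and 4 lower in Yumm1.7 (8.94% and 48.1%).

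WWTR1 was the more abundant coactivator in A375. It lies on chromosome 3, from 149517235 to 149736714, and YAP1 on chromosome 11, from 102110461 to 102233423 (GENCODE 29, GRCh38, the build named in the submitters' processing notes). In A375, WWTR1 was at 222 TPM in P input, 250 in monosomes and 291 in polysomes, and at 182, 252 and 88.5 in S. Its S polysome level was the lowest of the 6, while the other 5 lay between 182 and 291. YAP1 was at 26.1, 12 and 32.0 TPM in P and at 18.5, 11.3 and 14.1 in S. YAP1 was also low in S polysomes relative to P polysomes, and its monosome levels lay side by side. WWTR1-AS1, an antisense gene whose reads cannot be told from those of WWTR1 without strand, was at 2.64 TPM or less, and WWTR1-IT1, in an intron on the same strand, at 0.908 or less.

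In Yumm1.7 the coactivators were closer in level, and both had less TPM in S, as the median gene did. WWTR1 was at 63.6, 117 and 72.8 TPM in P input, monosomes and polysomes and at 15.9, 45.7 and 7.14 in S. YAP1 was at 43.8, 43.1 and 87.0 in P and at 18.3, 40.9 and 12.7 in S. In monosomes the YAP1 levels were close, with an S minus P difference of 0.14 relative to the median gene. Relative to the median gene, the S minus P difference in input was -1.0 for WWTR1, at the edge of the 2-fold count, and -0.28 for YAP1. In A375 it was -0.09 and -0.27.

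The balance between the coactivators, which does not depend on library scaling, differed by line more than by state. YAP1 made up 10.5% of the summed YAP1 and WWTR1 TPM in A375 P input and 9.2% in S input. In Yumm1.7 it made up 40.8% and 53.6%. In polysomes, the YAP1 share was higher in S than in P in both lines (9.9% and 13.7% in A375, 54.4% and 64.0% in Yumm1.7), so that in A375 input and polysomes differed in direction. The summed coactivator TPM was 5.89 times the summed TEAD TPM in A375 P input and 6.08 times in S input. In Yumm1.7 this ratio was 4.32 in P and 1.45 in S.

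The make-up of the TEAD mRNAs differed between the states, while their summed level in input was similar. It was 42.1 TPM in P and 33.0 in S in A375, and in Yumm1.7 24.9 and 23.5. TEAD1 and TEAD4 led in P input of both lines, with 37.5% and 46.8% of the sum in A375 and 23.6% and 56.7% in Yumm1.7. TEAD2 was the leading TEAD mRNA of Yumm1.7 S input with 48.4%, against 17.1% in P, and in A375 S input it was level with TEAD4 at 31.8% against 31.6%, with 12.8% in P. TEAD3 had the smallest share in P, at 2.9% in A375 and 2.7% in Yumm1.7, and 9.2% and 13.8% in S.

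**Figure D2:**
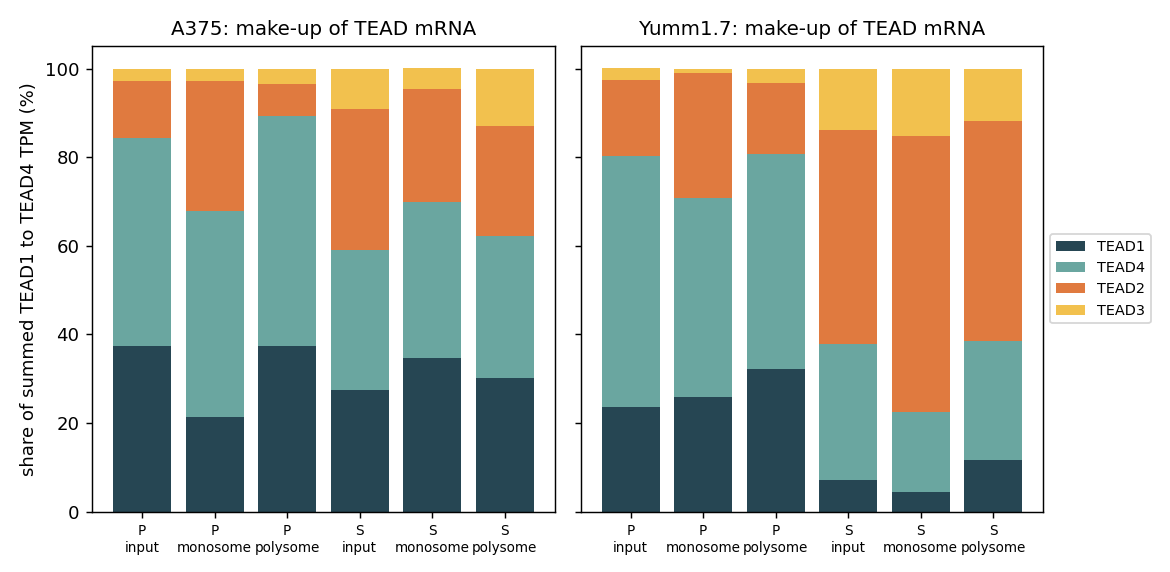
Share of TEAD1, TEAD4, TEAD2 and TEAD3 in the summed TEAD TPM of each library, in percent, for A375 (left) and Yumm1.7 (right); each bar is 1 library. TEAD2 and TEAD3 together went from 15.7% to 41.0% in A375 input and from 19.8% to 62.2% in Yumm1.7 input, but from 32.1% to 30.2% in A375 monosomes.

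The joint share of TEAD2 and TEAD3, a pair put together after the values were seen, was higher in S in 5 of the 6 pairs of libraries. It went from 10.8% to 37.7% in A375 polysomes, from 29.1% to 77.4% in Yumm1.7 monosomes and from 19.3% to 61.4% in Yumm1.7 polysomes. The A375 monosome libraries went the other way, from 32.1% to 30.2%, with TEAD1 at 21.3% in P and 34.7% in S. The fractions of a state are parts of 1 preparation as far as the labels tell, and are not replicates.

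TEAD2 (chromosome 19, 49340595 to 49362457) was at 5.40, 4.75 and 3.88 TPM in A375 P input, monosomes and polysomes and at 10.5, 4.20 and 7.60 in S. In Yumm1.7 it was at 4.25, 4.76 and 5.69 in P and at 11.4, 22.9 and 6.52 in S. The Yumm1.7 S libraries all lay above the P libraries, whereas the A375 S monosome level lay among the P levels. Relative to the median gene, the input difference was 1.04 in A375, just past 2-fold, and 2.17 in Yumm1.7. As deposited the A375 difference was 0.84 and not counted, and the Yumm1.7 difference was 1.24. DKKL1, which overlaps human TEAD2 on the other strand, was at 0.615 TPM or less.

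TEAD3 (human chromosome 6, 35473597 to 35497076) was the lowest TEAD gene in P of both lines. It was at 1.22, 0.479 and 1.75 TPM in A375 P and at 3.03, 0.745 and 4.01 in S, and at 0.661, 0.161 and 1.18 in Yumm1.7 P and 3.24, 5.66 and 1.55 in S. Its S level was above its P level in all 3 fractions of both lines. In Yumm1.7 it had entered the comparison through its S levels, and its polysome difference as deposited was 0.22. The input difference was 1.06 in A375 and 2.29 in Yumm1.7, or 0.86 and 1.35 as deposited. At levels this near 1 TPM, the value added before the logarithm holds the differences down.

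TEAD1 (chromosome 11, 12674591 to 12944483) was at 15.8, 3.47 and 19.5 TPM in A375 P and at 9.04, 5.67 and 9.29 in S. In Yumm1.7 it was at 5.87, 4.39 and 11.5 in P and between 1.52 and 1.67 in S. TEAD4 (chromosome 12, 2959330 to 3040673) was at 19.7, 7.59 and 26.9 TPM in A375 P and at 10.4, 5.73 and 9.87 in S, and at 14.1, 7.61 and 17.2 in Yumm1.7 P and 7.21, 6.69 and 3.54 in S. Both genes had less TPM in S input of both lines. Relative to the median gene their input differences were within 2-fold in both: -0.54 and -0.66 in A375, and -0.43 and 0.06 in Yumm1.7. As deposited the Yumm1.7 values were -1.37 for TEAD1, past 2-fold, and -0.88 for TEAD4.

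CCN3 had the largest S minus P difference of the members in A375 input, with 1 or 0.1 TPM added before the logarithm. In polysomes with 0.1 TPM added, CCN5, listed at 0 in all P libraries, was at 6.16 and CCN3 at 5.82. CCN3, first named NOV, lies on chromosome 8 from 119416306 to 119424353. It was at 46.3, 29 and 90.1 TPM in P input, monosomes and polysomes and at 3334, 1695 and 4306 in S. Every S library lay far above every P library. In S input it was the 27th most abundant of the 16782 genes listed, and it was the 2834th in P. The S to P ratio of TPM was 71.9 in input, 58.4 in monosomes and 47.8 in polysomes, and its log2 difference ranked 4th among all genes tested in input, 4th in monosomes and 9th in polysomes.

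In Yumm1.7 the same gene was low and pointed the other way. CCN3 was at 3.11, 3.39 and 4.63 TPM in P and at 0.0968, 0.258 and listed at 0 in S. No S library reached a P library, and the gene had entered the comparison through its P levels. Its difference relative to the median gene was -0.97 in input and -1.59 in monosomes. The A375 difference in CCN3 stood beside a higher summed level of the melanocyte lineage markers (586 TPM in P input and 864 in S input), mostly from DCT (25.2 and 249), with MITF (66.6 and 43.0) and S100B (332 and 314) lower. The 2 of 8 fibroblast markers listed in A375 summed to 5.21 and 1.09 TPM. The part of cell composition in the CCN3 levels was not tested.

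CCN5, first named WISP2, had the largest difference of the members in Yumm1.7. The human gene lies on chromosome 20, from 44714844 to 44728509. In Yumm1.7 CCN5 was at 0.0825 TPM in P input, listed at 0 in P monosomes and at 0.170 in P polysomes, and at 83.2, 87.8 and 37.0 in S. Its S minus P difference ranked 7th among all genes tested in input, 10th in monosomes and 12th in polysomes. In A375 it was listed at 0 in all 3 P libraries and stood at 3.17, 0.600 and 5.96 TPM in S. The S levels were above P in every fraction of both lines, although in A375 they were low. CCN5 had entered the comparison through these S levels in both lines. The antisense gene KCNK15-AS1 overlaps human CCN5 and was also higher in S input (3.06 TPM in P and 10.8 in S), and the sources used here do not say whether counting used strand.

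In Yumm1.7, some fibroblast and smooth muscle markers were higher in S along with CCN5 and others were lower. The 7 of 8 fibroblast markers listed summed to 254 TPM in P input, 189 in monosomes and 425 in polysomes and to 385, 823 and 392 in S, so that the polysome sum was lower in S. COL3A1 went from 25.4 to 204 TPM in input while PDPN went from 214 to 67.3. The 6 smooth muscle markers summed to between 22.8 and 81.4 TPM in P and between 754 and 1439 in S, and the S sums came mainly from ACTA2 (input levels of 5.97 TPM in P and 603 in S) and TAGLN (0.440 and 138). SMTN, which made up most of the P sums, was lower in S in each fraction, at 49.0 and 12.2 TPM in input, 19.7 and 13.8 in monosomes and 70.5 and 9.75 in polysomes. The fibroblast receptor gene PDGFRA stayed at or below 0.679 TPM in all 6 libraries, the muscle filament gene DES at or below 0.654, and MYH11, the myosin of mature smooth muscle, was listed at 0 in all 3 P libraries and in S input and was at 0.335 at most elsewhere. The part of these cell types in the CCN5 levels was not tested.

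CCN1 and CCN2, the usual readouts of YAP/TAZ activity, were within 2-fold between the states in A375. CCN1 (first named CYR61, chromosome 1, 85580761 to 85583962) was at 29.2, 12.7 and 43.3 TPM in P and at 24.7, 15.0 and 34.7 in S. CCN2 (first named CTGF, chromosome 6, 131948176 to 131951373) was at 36.9, 24.0 and 61.0 in P and at 27.2, 22.2 and 32.7 in S. The states overlapped for both genes, and the input differences were -0.04 for CCN1 and -0.23 for CCN2.

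In Yumm1.7 both were higher in S relative to the median gene. CCN1 was at 16.1, 8.17 and 23.6 TPM in P and at 30.8, 65.2 and 37.2 in S, with no overlap. CCN2 was lower in level, at 2.04, 2.52 and 3.18 in P and at 6.15, 2.72 and 9.03 in S, where the S monosome level lay among the P levels. The input differences were 1.83 and 2.17, or 0.89 and 1.23 as deposited, so that CCN1 passed 2-fold only after centring. The CCN2 promoter shown above, with 3 TEAD motifs, is the human one, and human CCN2 was not higher in S.

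The 4 CCN genes together made up 112 TPM in A375 P input and 3389 in S input, of which CCN3 was 41.2% and 98.4%. In Yumm1.7 they summed to 21.3 and 120 TPM. There CCN1 led in P input with 75.5% and CCN5 in S input with 69.2%, while CCN3 went from 14.6% to 0.1%. CCN4, which is not among the 10 genes, was at 2.45 TPM in Yumm1.7 P input and 12.3 in S input.

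**Figure D3:**
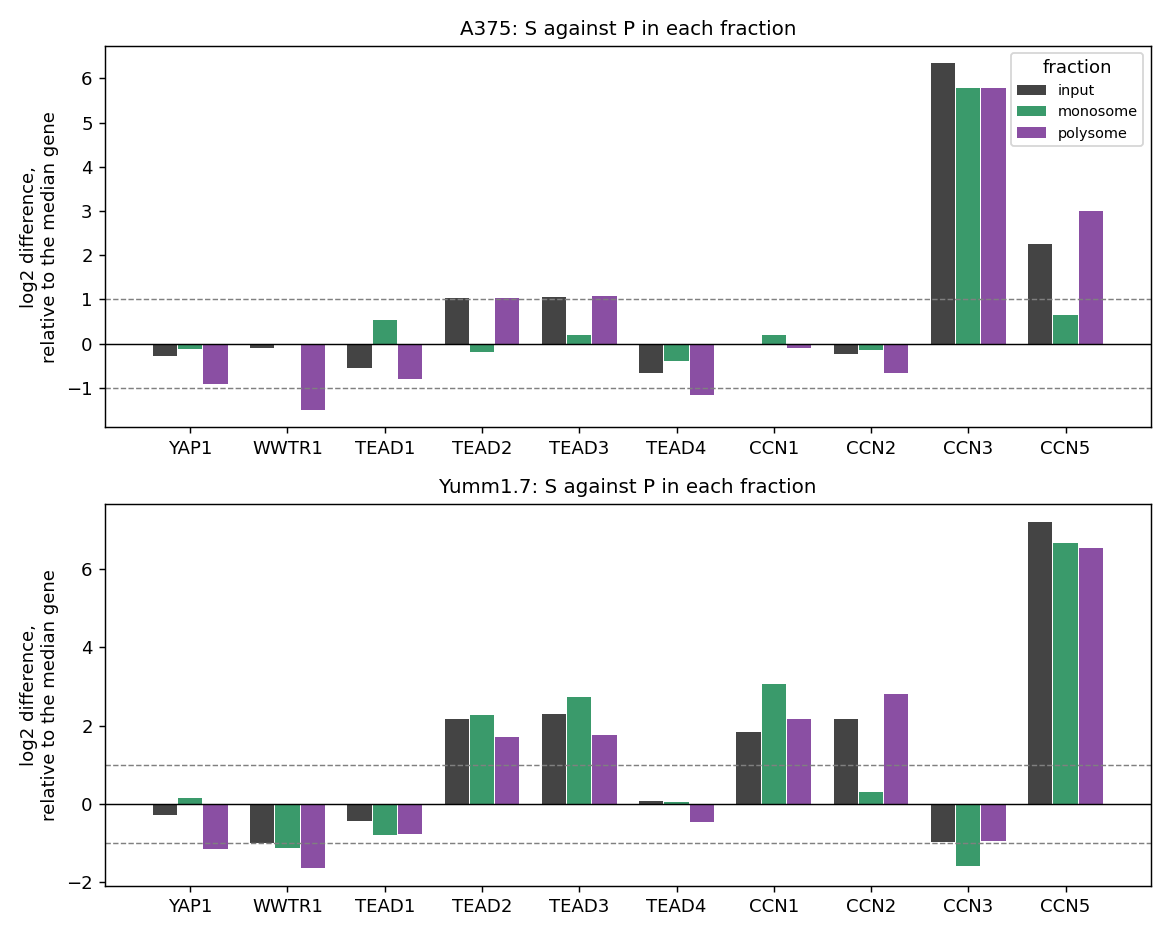
S minus P difference of log2(TPM + 1) relative to the median gene for the 10 genes in input, monosome and polysome libraries, A375 above and Yumm1.7 below; each bar compares 2 libraries and dashed lines mark 2-fold. CCN3 in A375 is at 6.34, 5.78 and 5.77 and CCN5 in Yumm1.7 at 7.22, 6.68 and 6.55, while WWTR1 of A375 is near 0 in input and monosomes and at -1.50 in polysomes.

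The monosome and polysome libraries repeated the input pattern in part. In A375 monosomes 1 member was higher, CCN3, and none lower (all genes 11.7% and 13.2%). In A375 polysomes the members that were higher were the 4 of the input comparison, and WWTR1 and TEAD4 were lower (all genes 16.5% and 15.6%; as deposited, 2 higher and 3 lower, with all genes at 12.5% and 20.6%). In Yumm1.7 monosomes TEAD2, TEAD3, CCN1 and CCN5 were higher and WWTR1 and CCN3 lower (all genes 25.4% and 24%; as deposited, 4 higher and 3 lower, with all genes at 21.2% and 29.2%). In Yumm1.7 polysomes TEAD2, TEAD3, CCN1, CCN2 and CCN5 were higher and YAP1 and WWTR1 lower (all genes 24.1% and 22.5%; as deposited, 2 higher and 5 lower, with all genes at 5.28% and 65.1%). Input, monosomes and polysomes all passed 2-fold with 1 sign for CCN3 in A375, higher in S (all genes 6.24% higher and 6.33% lower by this rule). In Yumm1.7 they did so for TEAD2, TEAD3, CCN1 and CCN5, higher in S, and WWTR1, lower (all genes 14.1% and 11.7%). As deposited, TEAD2 (0.17), TEAD3 (0.22) and CCN1 (0.64) were within 2-fold in Yumm1.7 polysomes, and of the 4 higher members CCN5 alone passed in all 3 fractions. In Yumm1.7, CCN5 and TEAD3 had entered the comparison through their S levels and CCN3 through its P levels.

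Polysome and monosome libraries of 1 state were set against each other to describe how far the members' mRNAs sedimented. Among members with TPM above 0 in both libraries, WWTR1 had the lowest ratio in 3 of the 4 combinations of line and state, all but A375 P, where TEAD2 was lower. Its TPM in polysomes was 1.17 times that in monosomes in A375 P and 0.352 times in A375 S, and 0.625 and 0.156 times in Yumm1.7 P and S. In A375 the monosome levels of the states were alike, at 250 and 252 TPM, and the polysome levels differed. Relative to the median gene, the log2 ratio of WWTR1 was -0.83 in A375 P, -2.16 in A375 S, -1.59 in Yumm1.7 P and -2.06 in Yumm1.7 S. In S, 2.0% of the genes tested in A375 and 0.8% of those in Yumm1.7 had a lower ratio.

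YAP1 also had a lower ratio in S than in P in both lines. It was 2.67 in A375 P and 1.25 in S, and 2.02 in Yumm1.7 P and 0.311 in S. Relative to the median gene the ratio changed by -0.75 in A375 and -1.19 in Yumm1.7. For WWTR1 the change was -1.42 in A375 and -0.43 in Yumm1.7. Both coactivators thus had a negative value in both lines, and each passed 2-fold in 1 line.

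The TEAD genes did not move together on the gradient. In A375, TEAD1 went from a ratio of 5.62 in P to 1.64 in S and TEAD4 from 3.55 to 1.72, whereas TEAD2 went from 0.816 to 1.81. Relative to the median gene these changes were -1.28 for TEAD1, -0.72 for TEAD4 and 1.26 for TEAD2. In Yumm1.7 the ratio of TEAD2 went from 1.2 to 0.284 and that of TEAD1 from 2.62 to 0.909, and relative to the median gene the 4 TEAD values lay between -0.88 and 0.12. TEAD1 lay near the median gene there, at 0.12, and TEAD2 had the reverse sign, at -0.47. As deposited, the TEAD1 change was negative in both lines (-1.57 in A375 and -1.30 in Yumm1.7). That of TEAD2 was 0.96 in A375 and -1.89 in Yumm1.7.

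Among the CCN genes, CCN3 kept its place on the A375 gradient while its input level was 71.9 times higher in S: its ratio was 3.1 in P and 2.54 in S, a change of 0.04 relative to the median gene. CCN5 in Yumm1.7 was at 87.8 TPM in S monosomes and 37.0 in S polysomes, and its P levels were too low to give a ratio. CCN2 in Yumm1.7 went from a ratio of 1.26 in P to 3.33 in S, a change of 2.61 relative to the median gene, and CCN1 from 2.89 to 0.57, a change of -0.80. CCN2 and CCN1, both higher in S input, thus had values of opposite sign on the Yumm1.7 gradient, at CCN2 levels of at most 9.03 TPM.

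**Figure D4:**
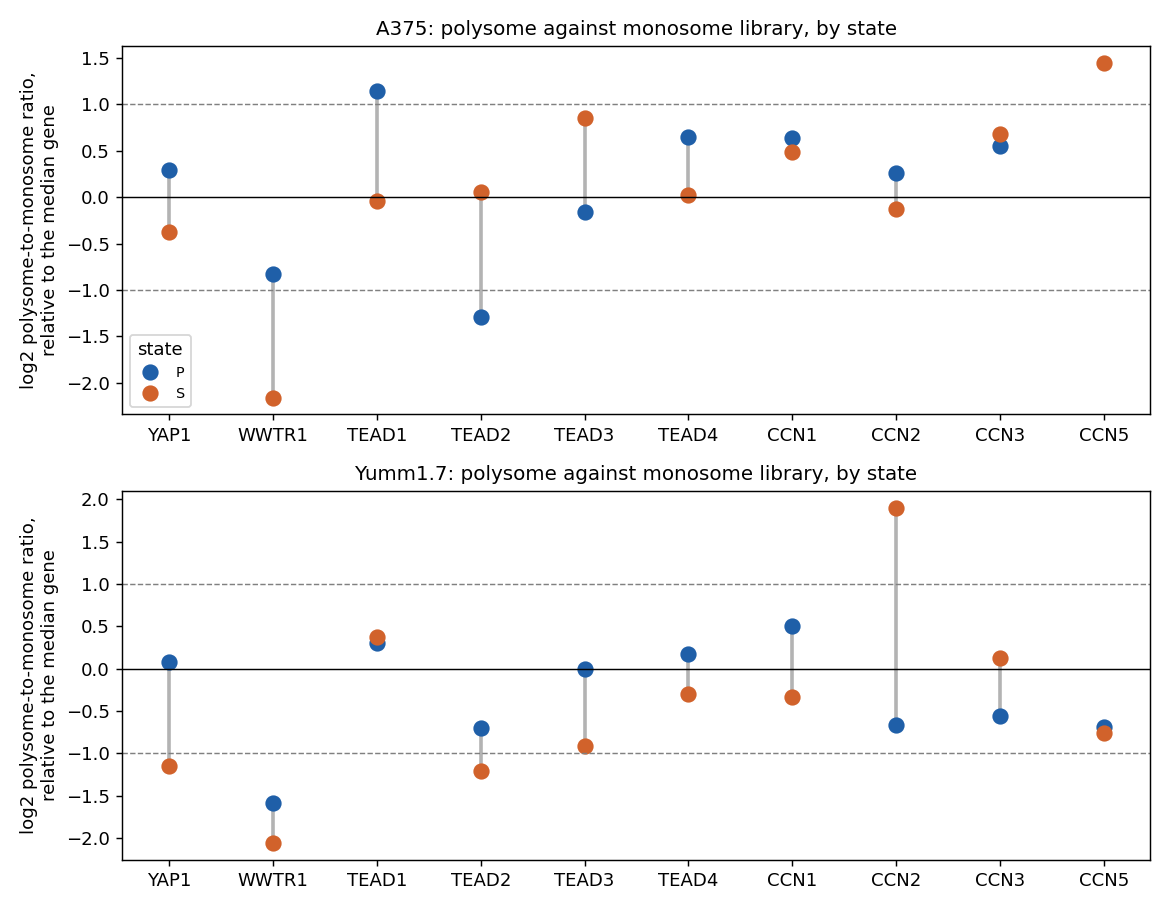
Log2 ratio of polysome to monosome library, as log2(TPM + 1) relative to the median gene, for each gene in P (blue) and S (orange), A375 above and Yumm1.7 below; each point compares 2 libraries and dashed lines mark 2-fold. WWTR1 lies at -2.16 in A375 S and -2.06 in Yumm1.7 S, and CCN2 of Yumm1.7 goes from -0.67 to 1.90. CCN5 of A375 P has no point because it was listed at 0 in both libraries. The points of CCN5 in Yumm1.7 P (0 and 0.170 TPM) and CCN3 in Yumm1.7 S (0.258 and 0 TPM) rest on levels too low to give a ratio.

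Counted over the members, the polysome library exceeded the monosome library at least 2-fold relative to the median gene for TEAD1 in A375 P, and for TEAD2 and CCN5 the reverse held (all genes 19.1% and 20.8%). CCN5 was listed at 0 in both of those libraries, so its place reflects the centring alone. In A375 S, CCN5 was higher and WWTR1 lower (all genes 20.8% and 16.7%). In Yumm1.7 P, no member was higher and WWTR1 was lower (all genes 14% and 13.4%), and in Yumm1.7 S, CCN2 was higher and YAP1, WWTR1 and TEAD2 were lower (all genes 13.2% and 10.9%).

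Without centring, most of these ratios moved with the median gene, which was 1.05 higher in polysomes than in monosomes on the log2 scale in A375 P, 0.67 in A375 S and 0.91 in Yumm1.7 P, and -0.46 in Yumm1.7 S. In A375 the members then counted were 6 higher and 0 lower in P (all genes 51.6% and 7.36%) and 4 and 1 in S (38.7% and 4.86%). In Yumm1.7 they were 3 and 0 in P (46.2% and 2.54%) and 1 and 5 in S (6.32% and 25.6%).

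The change of the ratio from P to S was at least 2-fold upward for TEAD2 and CCN5 and downward for WWTR1 and TEAD1 in A375 (all genes 13.1% and 7.88%), where the CCN5 value again starts from 0. In Yumm1.7 it was upward for CCN2 and downward for YAP1 (all genes 17.3% and 12.6%). As deposited, the median gene itself changed by -0.29 in A375 and -1.42 in Yumm1.7. The counts were then 1 upward and 4 downward in A375 (all genes 7.89% and 16.2%) and 1 and 8 in Yumm1.7 (3% and 66.5%).

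The rest of the Hippo pathway was mostly within 2-fold between the states in A375 input. Of 22 tested genes of the kinase cascade, 1 was at least 2-fold higher in S input (the kinase gene MAP4K3, 16.7 and 38.5 TPM) and 1 lower (the scaffold gene WWC1), with a median of 0.10, where 15.6% of all genes were higher and 16.2% lower. In monosomes 6 were higher (STK3, TAOK1, TAOK3, MAP4K3, MAP4K5 and STK38) and none lower, against 11.7% and 13.2% of all genes. Within 2-fold in input were STK4, the gene of MST1 (15.2 and 6.77 TPM, -0.87), MAP4K5 (35.5 and 52.3, 0.75), WWC2 (9.40 and 4.69, -0.67), FRMD6 (118 and 68.2, -0.58) and STK3, the gene of MST2 (8.43 and 10.8, 0.53). In Yumm1.7 input, 3 of 21 were higher and 3 lower (median 0.34), beside 23.1% and 22.3% of all genes. The genes of the scaffold SAV1 (53.5 and 7.71 TPM) and of the kinase activators MOB1A (29.4 and 4.11) and MOB1B (7.40 and 1.14) were lower, and NF2 (17.0 and 22.3), TAOK2 (11.6 and 23.3) and FRMD6 (11.8 and 15.4) were higher relative to the median gene. As deposited, none of the 21 was higher and 7 were lower, with all genes at 8.94% and 48.1%.

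In input, binding partners of YAP, TAZ and TEAD held 1 gene counted in opposite directions in the lines. VGLL4, whose protein competes with YAP for TEAD, was at 15.5 TPM in A375 P input and 121 in S input, and at 4.97 and listed at 0 in Yumm1.7. In the other A375 fractions it was at 10.7 and 95.5 TPM in monosomes and 16.2 and 90.5 in polysomes, so that all 3 S libraries lay above all P libraries. Of 18 partner genes tested in A375, 2 were higher in S input, VGLL4 and the cadherin gene FAT1 (24.8 and 81.4 TPM), and none lower (median -0.03; all genes 15.6% and 16.2%). In Yumm1.7, 5 of 19 were higher, including the LIM protein gene AJUBA (11.7 and 20.1) and the angiomotin gene AMOTL1 (21.9 and 36.4), and 5 were lower, including STRN4 (36.1 and 2.35) and the junction protein gene TJP1 (20 and 2.62), with a median of 0.07 (all genes 23.1% and 22.3%). As deposited the Yumm1.7 counts were 0 and 9 (all genes 8.94% and 48.1%).

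Other genes known as YAP/TAZ targets were counted with CCN1 and CCN2 left out. In A375 none of 17 was higher in S input and 5 were lower, with a median of -0.63, beside 15.6% and 16.2% of all genes: NT5E (19.8 and 1.23 TPM), FJX1 (18.3 and 2.48), the receptor kinase gene AXL (11.7 and 2.81), the stress gene GADD45A (58.5 and 18.2) and ANKRD1. AXL was within 2-fold in A375 monosomes (5.33 and 6.18 TPM, 0.14) and polysomes (14.8 and 10.5, -0.25). NT5E, FJX1 and GADD45A were counted as lower in both of these fractions, and ANKRD1 in polysomes. In Yumm1.7, 6 of 15 were higher and 2 lower, with a median of 0.38 (all genes 23.1% and 22.3%). ANKRD1, a common reporter of YAP activity, was at 24.6 TPM in P input and 58.7 in S input, ARHGEF17 at 6.33 and 14.2 and AMOTL2 at 4.76 and 6.13, while GADD45A (36.5 and 1.51) and MYOF (25.1 and 2.22) were lower. As deposited, 4 of the Yumm1.7 targets were higher and 6 lower (all genes 8.94% and 48.1%). The difference between the lines was not tested.

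Genes whose profile over the 12 libraries was most like that of a member were ranked by the root mean square difference of log2(TPM + 1), after each gene was centred on its mean within each line, over 8522 genes tested in both lines. The nearest profile to YAP1 was that of NPLOC4 (0.106, against a median of 0.70 over all genes), followed by ATP2A2 and MTMR4. The nearest to WWTR1 was RBMS1 (0.251), to TEAD1 MBD1 (0.144), to TEAD2 TMEM143 (0.289), to TEAD3 CASTOR2 (0.179) and to TEAD4 GRK2 (0.152). For CCN1 it was LRSAM1 (0.238), followed by ARHGEF17, a gene of the target list (0.283), and for CCN2 it was MORN1 (0.372). For CCN3 it was JUN (0.491, against a median of 2.26) and for CCN5 FSTL1 (0.698, against a median of 2.62). The measure grows with the size of a gene's own differences, so distances cannot be compared directly between members.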

How the data were processed

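RNA was measured by sequencing of input, monosome and polysome RNA from 2 lines in states P and S, 1 library each. Per the labels' protocols, polyadenylated RNA was captured on poly-T beads, then copied with random primers. The authors deposited TPM, 1 table per line. Aligner, quantifier, annotation and strandedness: not given in the sources used here. Builds were GRCh38 and GRCm38, per the submitters' processing notes. The lowest gene mean in either table is 0.1 TPM, and depth is unknown, so no interval could be computed.

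From these values, log2(TPM + 1) differences were computed with Python 3.11.15 and pandas 2.3.3 for genes averaging 1 TPM or more, relative to the median gene, with 2-fold as the size counted. The code was tested on simulated data. Where a list gene is itself one of the 10 members it was left out of the list. Alternatives were another pseudocount, no centring, other minimum levels and upper-quartile scaling.

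The members and lists were chosen with earlier results of these data known. Named genes were the members, up to 6 genes of each list per line with the largest input differences and a mean of at least 5 TPM, and the nearest profiles, up to 3 per member. VGLL4 values in further fractions, WWC1 and ANKRD1 in A375, and the Hippo genes higher in A375 monosomes were named after their values were seen. So were the values of AXL, other target genes and receptor genes in monosomes and polysomes. Groups came from sample titles. No test could be made with 1 library a group. Human positions are from GENCODE 29 and promoter sequences from RefSeq GRCh38.p14.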

Additional observations from a re-analysis of the deposited data

Results flagged for a closer look

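CCN3 went in opposite directions in the lines in all 3 fractions, with centring on the median gene and without it. In Yumm1.7 it was at most 4.63 TPM and had entered the comparison through its P levels. CCN2 did so in input and polysomes. In monosomes its A375 and Yumm1.7 values were small, at -0.15 and 0.29 with centring and -0.11 and 0.08 without. For CCN3, higher in S in A375 and lower in S in Yumm1.7, the S minus P difference in input was 7.31 larger in A375 on the log2 scale relative to the median gene. For CCN2, lower in S in A375 and higher in Yumm1.7, the A375 difference minus the Yumm1.7 difference was -2.40. With 1 library a group neither difference between lines was tested, and the A375 values of CCN2 were within 2-fold.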

How the results depend on the processing

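Centring mattered most. With no centring, A375 input counts were 2 higher (4 relative to the median gene), and Yumm1.7 input counts 4 lower (1 relative to the median gene). For the change of the polysome-to-monosome ratio they were 1 upward and 4 downward in A375 (2 and 2) and 8 downward in Yumm1.7 (1). With a minimum mean of 5 TPM, which leaves 8 members in A375 and 6 in Yumm1.7, the counts were 2 higher in A375 input, 3 higher and 0 lower in Yumm1.7 input, 1 upward for the A375 ratio change and 0 upward for the Yumm1.7 ratio change. With no minimum, 2 members were lower in Yumm1.7 input and 3 had a downward ratio change, and with upper-quartile scaling 2 were lower in Yumm1.7 input. The shares of all genes under these other minimum levels and this scaling are not given here. These counts therefore cannot be set against all genes. Of 120 member values (84 with the minimum of 5 TPM), none that was past 2-fold changed sign under any alternative run. Values within 2-fold were not checked for sign in this way, and some did change it. Without centring, the Yumm1.7 ratio change of TEAD1 went from 0.12 to -1.30 and that of CCN3 from 0.73 to -0.69. With no centring, 12 dropped below 2-fold and 30 went past it, against 3 and 11 with a pseudocount of 0.1 TPM and 1 and 2 with upper-quartile scaling. For shares in A375, the monosome libraries gave TEAD1 13.4 percentage points more in S and TEAD2 -3.5, and the polysome libraries gave YAP1 3.8 more, opposite to input; the cause was not tested. No paired analysis was possible because each group is 1 library.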

Other observations

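Receptors through which CCN proteins act were counted in the same way. In A375 input, 5 of 10 tested receptor genes were at least 2-fold higher in S and 2 were lower (median 1.02; all genes 15.6% and 16.2%). The integrin genes ITGAV (44.9 and 164 TPM), ITGA5 (26.9 and 68.5) and ITGA6 (159 and 302) and the syndecan gene SDC4 (52.3 and 188) were higher. ITGB3 (120 and 19.4) and ITGB5 (137 and 42.0), whose products pair with the ITGAV product, were lower. In A375 monosomes 6 were higher and 1 lower (median 1.15, all genes 11.7% and 13.2%). In A375 polysomes 2 were higher and 2 lower (median 0.43, all genes 16.5% and 15.6%). ITGAV (0.45), ITGA5 (0.08) and ITGA6 (0.52) were within 2-fold in A375 polysomes. In Yumm1.7 input, 4 of 9 were higher and none was lower (median 0.39; all genes 23.1% and 22.3%), with ITGB5 at 10.8 and 48.1 TPM and ITGA5 at 50.9 and 103. As deposited the Yumm1.7 counts were 1 and 3 (all genes 8.94% and 48.1%). ITGB5 thus went in opposite directions in the lines, a difference that was not tested. In Yumm1.7 polysomes 3 receptor genes were higher and 2 lower (all genes 24.1% and 22.5%). Relative to the median gene, the polysome-to-monosome ratio changed upward for none and downward for 4 of 10 in A375 (all genes 13.1% and 7.88%). In Yumm1.7 it changed upward for 1 and downward for 6 of 9 (all genes 17.3% and 12.6%).

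CCN1 and CCN2 are also known targets of the actin-regulated factor SRF. Of 16 tested genes of the SRF list in Yumm1.7, 11 were higher in S input and 1 was lower (median 2.31; all genes 23.1% and 22.3%). Higher were FLNA (77.8 and 226 TPM), MYL9 (0.103 and 49.0) and ACTG2 (listed at 0 and 136). MYL9, ACTG2 and TAGLN averaged under 1 TPM in P and were compared through their S levels, and ACTA2 and TAGLN are also on the smooth muscle list. In A375, 6 of 14 were higher and none was lower (median 0.93; all genes 15.6% and 16.2%), with MRTFA at 4.80 and 15.8 TPM and FHL2 at 23.6 and 48.0. As deposited, 1 was higher and none lower in A375 (all genes 11.9% and 20.9%). As deposited the Yumm1.7 counts were 10 and 3 (all genes 8.94% and 48.1%).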
